A study of Mustela putorius furo with 2 samples.

Results

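The genes SST, CORT, LYPD6, CALB1, STK32B and THSD7B, which mark somatostatin interneurons or parts of them, were followed in single nuclei of ferret cortex. They are 6 of the 28156 features in each matrix and were found by their symbols. Each symbol had 1 row in each matrix, with the identifiers ENSMPUG00000003389 (SST), ENSMPUG00000016450 (CORT), ENSMPUG00000003548 (LYPD6), ENSMPUG00000011030 (CALB1), ENSMPUG00000007927 (STK32B) and ENSMPUG00000002246 (THSD7B). They were picked with earlier results of the same matrices known, in particular the band ratios of CORT and LYPD6 in inhibitory nuclei, so their levels and ratios are a description and no test was made. All 6 were also among the leading genes of SST-rich inhibitory clusters of these matrices. The tissue was somatosensory cortex of ferrets (Mustela putorius furo), whose cortex is folded. DCX knockout is the genotype given for both libraries, although the series text speaks of a knockdown. The DCX product, doublecortin, binds microtubules in young migrating neurons. The group called here the upper band was 1 library of nuclei from frozen tissue of the upper band of the cortex, and the deeper band was 1 library from the deeper band. Neither group has an age, a sex, a number of animals or a treatment in the labels used, and wild-type tissue was not analysed here. With 1 library per band there was no replicate to check a difference between bands against, and effects of band, library and animal cannot be told apart.

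Somatostatin (SST) is an inhibitory neuropeptide made by a large class of cortical interneurons that arise in the medial ganglionic eminence (MGE) and mostly contact the dendrites of other neurons. Cortistatin (CORT) is a related peptide that binds the same receptors. CALB1 encodes the calcium buffer calbindin, carried by many somatostatin interneurons. LYPD6 encodes a membrane-anchored protein of the Ly6 family that modulates nicotinic acetylcholine receptors. STK32B encodes a serine/threonine kinase, and THSD7B a membrane protein with thrombospondin type 1 domains. Interneurons of the caudal ganglionic eminence (CGE), which include those with the peptide VIP, form the other large group.

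After filters on detected genes and doublets, 6291 upper-band and 8189 deeper-band nuclei remained. Clusters whose markers resembled inhibitory neurons held 1021 upper-band nuclei (16.2%) and 778 deeper-band nuclei (9.50%), with medians of 7634 and 7278 unique molecular identifiers (UMIs, counts of captured RNA molecules) per nucleus. The 11 inhibitory markers summed to 5813 and 5519 CPM (UMIs scaled to 1000000 UMIs of the class) in these nuclei, against 114.5 and 87.9 CPM in excitatory neuron-like nuclei. Markers of other cells were also found in the inhibitory nuclei: 615.4 and 568.4 CPM for the 9 excitatory markers (1 at 0), 460.3 and 541.3 CPM for the 8 astrocyte markers (none at 0), and 73.7 and 115.4 CPM for the 9 oligodendrocyte markers in the tables (none at 0). The oligodendrocyte sum was thus the higher in the deeper band. The largest such sum was that of the 6 oligodendrocyte precursor markers found of 8 listed, at 900.0 and 937.2 CPM (none at 0). SOX6, listed below as an interneuron transcription factor too, gave 615.9 and 631.4 CPM of it. The part of these markers in the results was not tested. The libraries shared 24 barcodes, and without these the band ratios given next were 1.11 for SST, 1.82 for CORT and -1.23 for LYPD6.

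In inhibitory nuclei, SST and CORT stood higher in the deeper band and LYPD6 lower. SST was at 378.6 CPM (95% Poisson interval 365.7 to 391.9, 3243 UMIs) in the upper band and 819.4 CPM (797.0 to 842.2, 5092 UMIs) in the deeper one. The log2 ratio, deeper over upper band, was 1.11 (exact interval 1.05 to 1.18). CORT was at 7.005 CPM (60 UMIs) and 24.9 CPM (155 UMIs), a log2 ratio of 1.83 (1.39 to 2.29). By CPM, its upper-band value was not above the 7.515 CPM (17 UMIs) of upper-band oligodendrocyte-like nuclei, read below as background. In the deeper band those nuclei were at 9.345 CPM (49 UMIs). Per nucleus, upper-band CORT averaged 0.059 UMIs in inhibitory and 0.018 in oligodendrocyte-like nuclei. Both peptides thus lay above the 95th percentile, 0.45, of the 10034 genes with at least 100 UMIs in these nuclei. Of those genes, 0.389% had a log2 ratio of at least 1, and since CORT was chosen partly by this ratio, nothing is read from that share.

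LYPD6 was at 122.6 CPM (1050 UMIs) in the upper band and 53.1 CPM (330 UMIs) in the deeper one, with a log2 ratio of -1.21 (-1.39 to -1.03), where 0.219% of genes had a ratio of -1 or lower. LYPD6 too was chosen partly by this ratio, so nothing is read from that share. STK32B was at 34.1 CPM (292 UMIs) and 20.4 CPM (127 UMIs), a ratio of -0.74 (-1.05 to -0.43). THSD7B was at 658.7 CPM (5642 UMIs) and 422.9 CPM (2628 UMIs), a ratio of -0.64 (-0.71 to -0.57). These 3 genes lay below the 5th percentile of all genes, -0.42, and only LYPD6 of them passed 1 log2 unit. CALB1, at 50.3 CPM (431 UMIs) and 60.5 CPM (376 UMIs), had a ratio of 0.27 (0.06 to 0.47), inside the range of most genes. The median ratio of all genes was -0.00. All intervals cover counting error only.

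**Figure D1:**
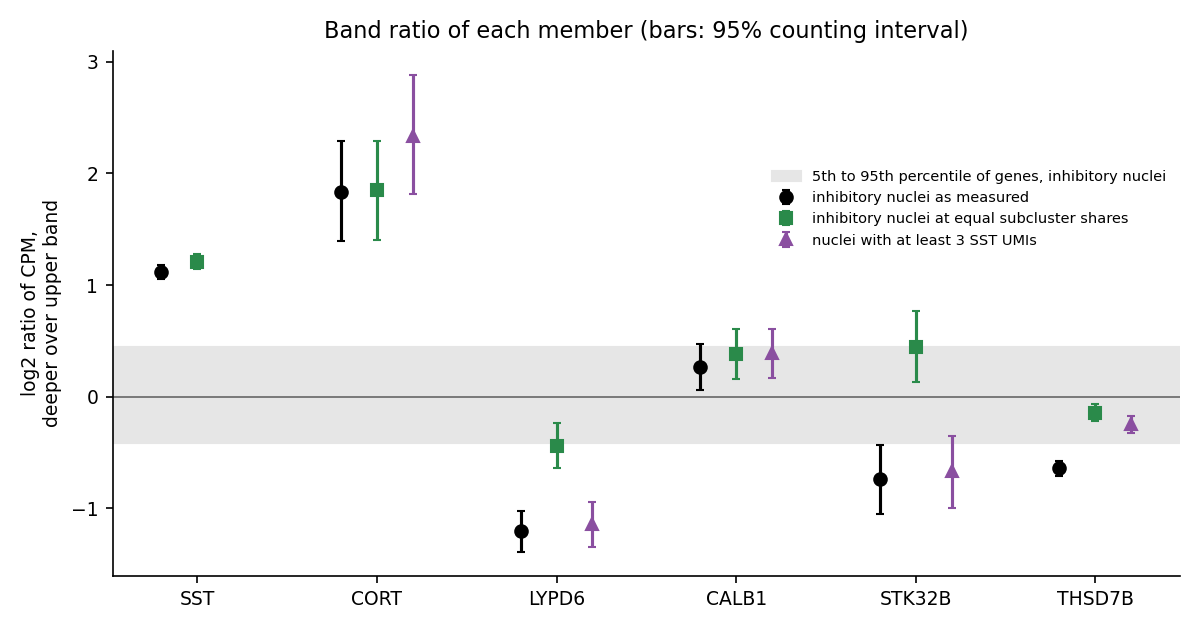
Log2 ratio of CPM, deeper over upper band, for each gene (vertical axis) in all inhibitory nuclei (circles), in inhibitory nuclei with subcluster shares made equal (squares) and in nuclei with at least 3 SST UMIs (triangles, not drawn for SST), with 95% counting intervals and a grey band from the 5th to the 95th percentile of genes in inhibitory nuclei. SST and CORT lie above the grey band however the nuclei are weighted, and STK32B changes sign when subcluster shares are made equal.

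At a threshold of 3 SST UMIs, the SST difference lay in the amount per nucleus more than in the share of nuclei reaching it. At least 3 SST UMIs were found in 352 of 1021 upper-band nuclei (34.5%, exact binomial interval 31.6 to 37.5%) and in 261 of 778 deeper-band nuclei (33.5%, 30.2 to 37.0%). Those nuclei were of similar depth, with medians of 7672 and 7451 UMIs. Their SST counts were not similar. The upper-band nuclei with at least 3 had a median of 6 SST UMIs and a maximum of 33, and the deeper-band nuclei had a median of 16 and a maximum of 105. At least 10 SST UMIs were seen in 104 upper-band nuclei (10.2%) and in 182 deeper-band nuclei (23.4%), so the similar shares held at the lower threshold only. At least 20 SST UMIs were seen in 17 upper-band nuclei (1.67%) and in 100 deeper-band nuclei (12.9%). Inhibitory nuclei without any SST UMI made up 36.5% of the upper band and 43.8% of the deeper band. When every nucleus was thinned to 5000 UMIs, which left out 141 and 137 shallower nuclei, the log2 ratio of the shares with at least 3 SST UMIs was 0.32, against -0.04 unthinned.

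**Figure D2:**
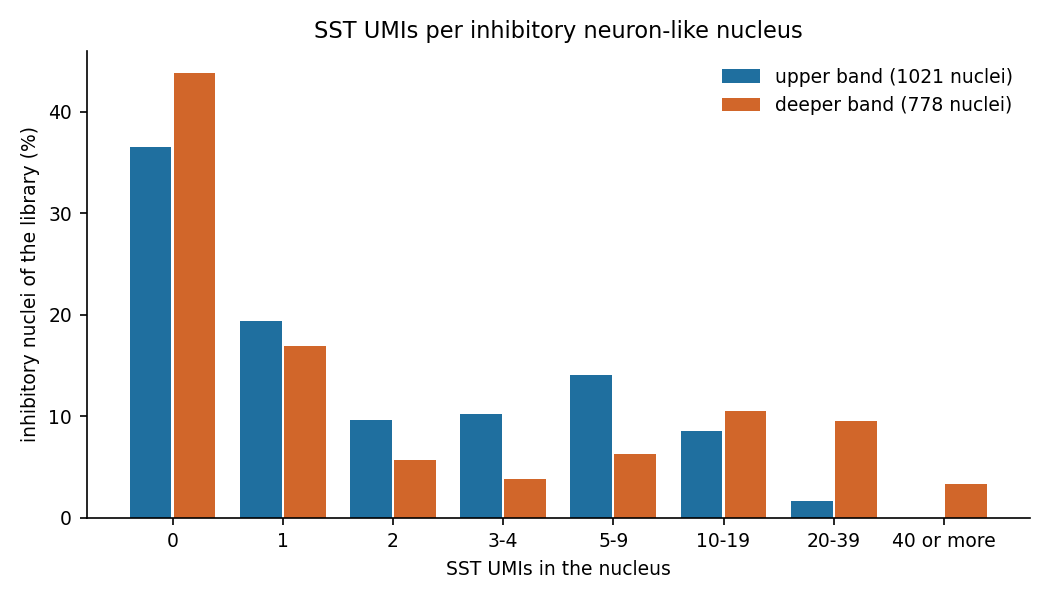
Share of inhibitory neuron-like nuclei of each library (vertical axis, percent) by the number of SST UMIs in the nucleus (horizontal axis, in classes). Upper-band nuclei (blue, 1021) are the more frequent from 1 to 9 UMIs, and deeper-band nuclei (orange, 778) at 0 and from 10 UMIs upward, with 26 deeper-band and 0 upper-band nuclei at 40 or more.

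The amount of SST outside inhibitory nuclei was nearly level across classes within a library and lower in the deeper band. Per nucleus, SST averaged 0.624 UMIs in excitatory, 0.704 in oligodendrocyte precursor-like, 0.623 in astrocyte-like and 0.569 in oligodendrocyte-like nuclei of the upper band. In the deeper band the same classes had 0.394, 0.268, 0.337 and 0.377. The class medians of all UMIs were far apart, with 10764 in excitatory and 2251 in oligodendrocyte-like nuclei of the upper band, while SST UMIs per nucleus were nearly level. Such values, like those of a class that should lack the gene, are read here as background and not as expression, and their source was not tested. The deeper-band precursor-like value of 0.268, on 52 UMIs, lay below the excitatory value beyond counting error. CORT was also similar between classes, with 0.015 UMIs per nucleus in excitatory and 0.018 in oligodendrocyte-like nuclei of the upper band. Unlike SST it was not lower in the deeper band, at 0.021 and 0.019, with intervals that overlapped those of the upper band. CALB1 had 0.019 and 0.014 in the same upper-band classes and 0.018 and 0.014 in the deeper band. For these 3 genes a nucleus with 1 UMI cannot be taken as expressing the gene. At least 3 SST UMIs were rare outside inhibitory nuclei, at 2.27% of upper-band and 0.832% of deeper-band oligodendrocyte-like nuclei.

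THSD7B, LYPD6 and STK32B differed between the other classes. THSD7B had 0.376 UMIs per nucleus in excitatory and 0.056 in oligodendrocyte-like nuclei of the upper band, and 0.238 and 0.038 in the deeper band. STK32B had 0.059 in excitatory, 0.104 in oligodendrocyte precursor-like and 0.002 in oligodendrocyte-like nuclei of the upper band, and no UMI in 387 astrocyte-like nuclei, which by the 3 counts that a count of 0 allows limits nuclei with a UMI, not nuclei expressing the gene, to 0.775%. LYPD6 had 0.052 in excitatory and 0.006 in oligodendrocyte-like nuclei of the upper band. THSD7B and LYPD6 thus had their lowest values in oligodendrocyte-like nuclei of the upper band, the class of lowest depth, and deeper nuclei give more UMIs of any gene they express.

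**Figure D3:**
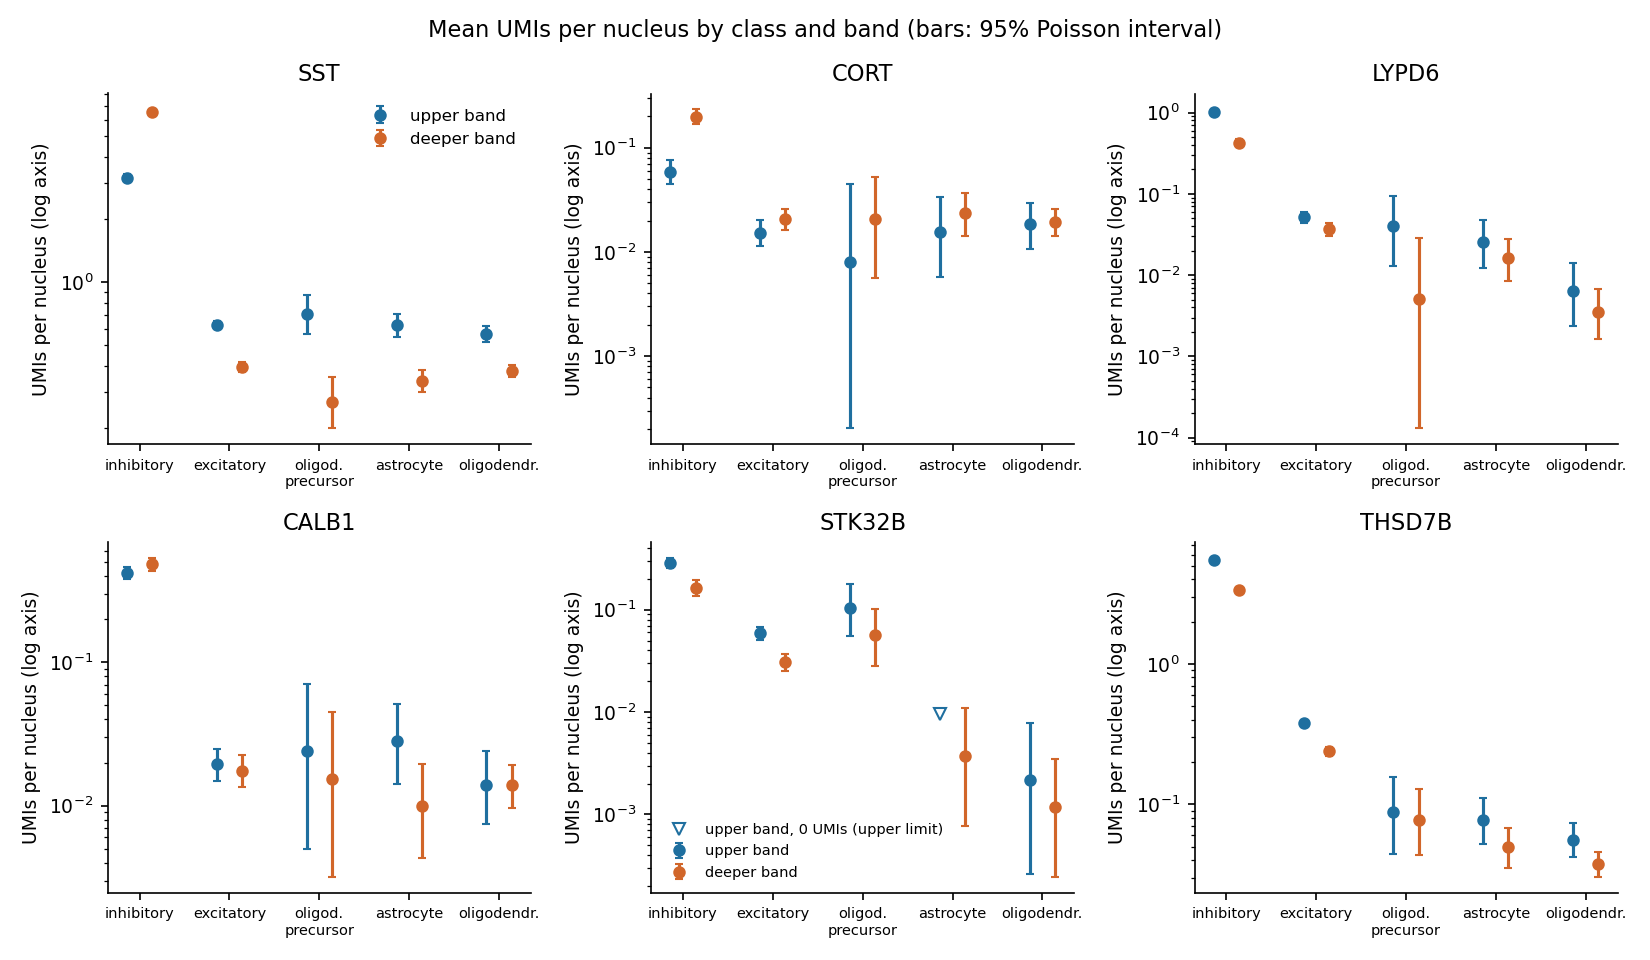
Mean UMIs per nucleus of each gene (vertical axes, log scale) in 5 classes of nuclei of the upper (blue) and deeper band (orange), with 95% Poisson intervals and an open triangle where no UMI was found. SST is nearly level across the 4 classes outside inhibitory nuclei, between 0.569 and 0.704 in the upper band, and most CORT and CALB1 intervals overlap there, while THSD7B and STK32B differ between those classes.

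Single clusters outside inhibitory nuclei stood out for STK32B, THSD7B and LYPD6. STK32B was at 567.5 CPM (120 UMIs) in the upper-band nuclei of an excitatory cluster of 20 nuclei per library led by TLL1, MYOCD and RARRES1, and at 121.5 CPM (27 UMIs) in its deeper-band nuclei. THSD7B was at 108.3 CPM (86 UMIs) and 269.0 CPM (243 UMIs) in an excitatory cluster of 85 and 92 nuclei, the reverse of its order in inhibitory nuclei. LYPD6 was at 243.8 CPM (132 UMIs) and 27.1 CPM (6 UMIs) in an unnamed cluster of 270 and 152 shallow nuclei that was nearest to vascular cells by its markers. In all excitatory nuclei, the log2 band ratios were -0.58 for SST, -0.43 for LYPD6, -0.86 for STK32B, -0.58 for THSD7B, 0.51 (-0.03 to 1.07) for CORT and -0.07 (-0.60 to 0.47) for CALB1, none of them past 1 log2 unit. At least 1 log2 unit lower were 2.02% of the 13916 genes measured there, and 0.632% were at least 1 unit higher.

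Within inhibitory nuclei, 19 subclusters were formed without the 6 genes or the other listed genes among the variable genes. Of these, 11 resembled MGE interneurons (687 and 481 nuclei), 7 CGE interneurons (313 and 264 nuclei), and 1 stayed unnamed (21 and 33 nuclei). All but THSD7B were more than 1 log2 unit higher in MGE-like than in CGE-like nuclei of both libraries. Since the 6 genes lead SST-rich clusters of these same data, this is a description only. The log2 ratio of MGE-like over CGE-like nuclei was 2.54 in the upper and 3.50 in the deeper band for SST, 3.68 and 3.96 for LYPD6, and 2.49 and 3.29 for CALB1. CORT had ratios of 2.16 and 3.93, over 5 and 4 UMIs in CGE-like nuclei. STK32B had 4.53 in the upper band, over 5 UMIs in CGE-like nuclei, and 126 UMIs against 1 in the deeper band, a ratio of 5.68 (3.17 to 10.99), which was 1.45 (0.57 to 2.45) with no doublet removal. THSD7B was nearly level in the upper band at 0.21 (0.13 to 0.30) and higher in MGE-like nuclei of the deeper band at 1.45 (1.29 to 1.62). With finer subclusters the upper-band ratio was -0.0095 (-0.097 to 0.078). Of the THSD7B UMIs in CGE-like nuclei, 889 of 1461 and 198 of 339 lay in subcluster 14 (28 and 8 nuclei). The CGE-like level thus rested mostly on that subcluster.

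SST was above 500 CPM in both libraries in 6 of the 11 MGE-like subclusters, with 352 upper-band and 222 deeper-band nuclei. They held 80.0% of the SST UMIs of upper-band and 87.7% of those of deeper-band inhibitory nuclei. Inhibitory markers summed lower in each of the 6 than in all inhibitory nuclei. The sums ran from 1093 CPM (subcluster 1) to 4201 CPM (subcluster 6) in the upper band. In the deeper band they ran from 1112 CPM (subcluster 13) to 2399 CPM (subcluster 8). Oligodendrocyte precursor markers were at 1693 and 1381 CPM in subcluster 1, of which SOX6 gave 1327 and 1005 CPM. The largest holder in the deeper band was subcluster 1, led by ADAMTS5, GLI2 and PDE1A (78 and 77 nuclei). Its SST level was 1063 CPM (median 5 UMIs per nucleus) in the upper band and 3395 CPM (median 23) in the deeper one, with a log2 ratio of 1.68 (1.54 to 1.81). The nuclei of both libraries had similar depth there, with medians of 6874.5 and 7085 UMIs. Oligodendrocyte markers moved with SST in this subcluster, with a sum of 61.9 CPM in the upper band (4 of 9 at 0) and 357.7 CPM in the deeper band (1 of 9 at 0), among them MBP with 17 and 55 UMIs in 14 and 24 nuclei. Their part in the SST difference was not tested. Subcluster 8, led by PLCE1, STK32B and LYPD6 (80 and 39 nuclei), had 1635 and 3614 CPM, and subcluster 10, led by CBLN4 and GLI3 (54 and 73 nuclei), had 967.3 and 1883 CPM.

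The other 3 had at most 12 deeper-band nuclei each. Subcluster 13, led by TAC1 and BARX2 (75 and 12 nuclei), had 644.9 and 1703 CPM of SST, subcluster 6, led by DSC3, STK32B and RXFP1 (43 and 9 nuclei), had 783.2 and 2251 CPM, and subcluster 9, led by CHODL, NOS1 and NPY (22 and 12 nuclei), had 529.1 and 1683 CPM. SST was thus higher in the deeper band in each of the 6. Over the 13 subclusters with at least 50 SST UMIs, 11 had a higher level in the deeper band, and the interval of the ratio lay above 0 in 7 and below 0 in none. With each subcluster given the same share of nuclei in both libraries, a weighting added after the data were seen, the SST ratio was 1.21 (1.14 to 1.28), close to the 1.11 measured. Without subcluster 1 it was 0.73.

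**Figure D4:**
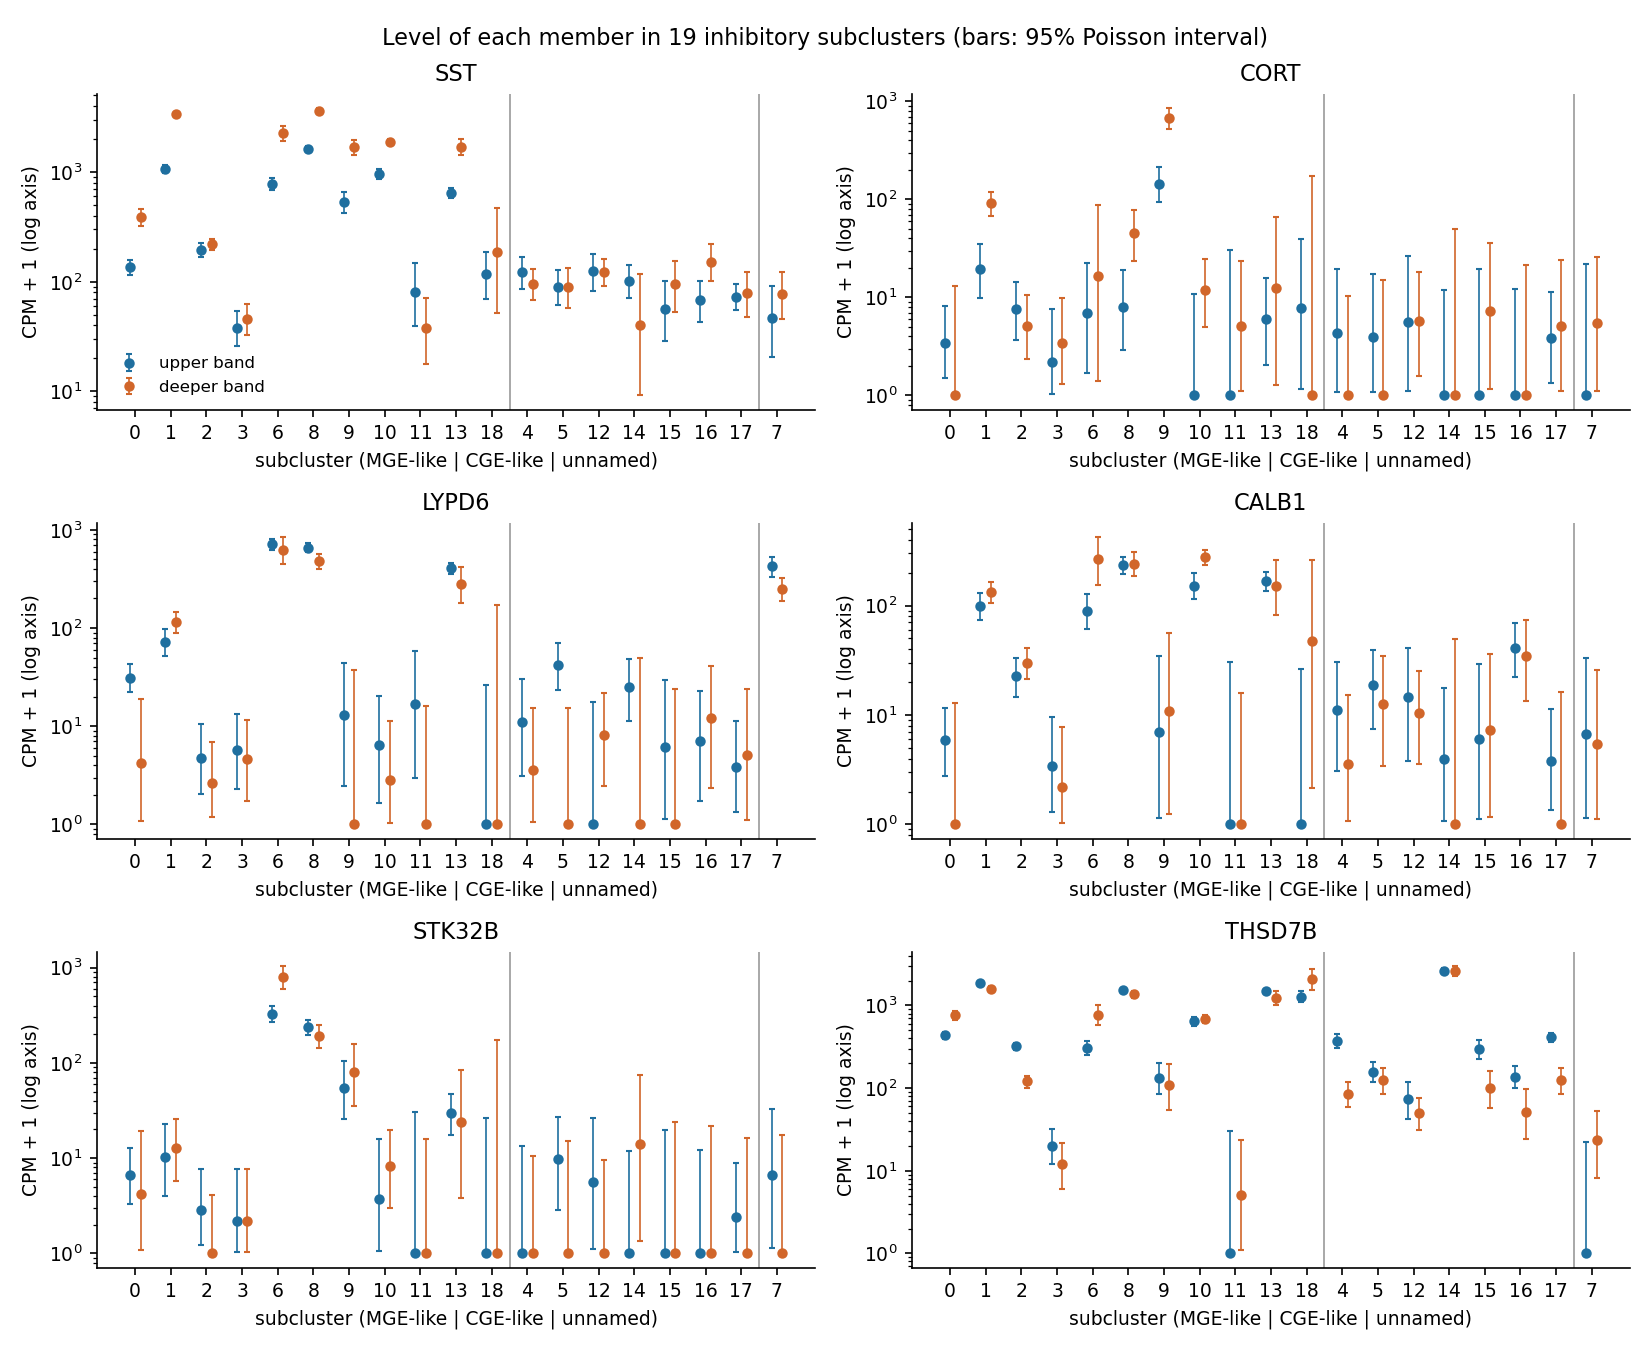
Level of each gene (vertical axes, CPM + 1, log scale) in the 19 inhibitory subclusters (horizontal axes, grouped as MGE-like, CGE-like and unnamed) of the upper (blue) and deeper band (orange), with 95% Poisson intervals. SST is high in subclusters 1, 6, 8, 9, 10 and 13 and higher in the deeper band in each, CORT peaks in subcluster 9, LYPD6 and STK32B in 6 and 8, and THSD7B in the CGE-like subcluster 14.

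CORT was concentrated in subclusters 9 and 1. Subcluster 9, whose leading genes CHODL, NOS1 and NPY mark long-range somatostatin neurons in other mammals, held 2.15% of upper-band and 1.54% of deeper-band inhibitory nuclei but 24 of 60 and 69 of 155 of their CORT UMIs. Its CORT level was 144.3 CPM (24 UMIs in 22 nuclei, median 1, maximum 4) in the upper band and 679.2 CPM (69 UMIs in 12 nuclei, median 6.5, maximum 14) in the deeper one, with a log2 ratio of 2.23 (1.55 to 2.97). Subcluster 1 had 18.7 CPM (10 UMIs) and 90.3 CPM (53 UMIs), a ratio of 2.27 (1.28 to 3.41). No other subcluster reached 50 CORT UMIs. At equal subcluster shares the CORT ratio was 1.85 (1.41 to 2.29).

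The 12 deeper-band nuclei of subcluster 9 had a median doublet score of 0.0988, against 0.0350 in its 22 upper-band nuclei and 0.0177 in all deeper-band inhibitory nuclei. With doublet removal raised to 2 times as many nuclei, 1 of the 12 remained with 7 of the 69 CORT UMIs, while 19 of the 22 upper-band nuclei remained with all 24, and the CORT ratio over inhibitory nuclei was 1.05 (0.55 to 1.55) in place of 1.83. Markers of other classes in subcluster 9 were at 889.9 and 915.4 CPM (excitatory), 282.6 and 187.0 CPM (astrocyte) and 186.4 and 236.2 CPM (oligodendrocyte). The excitatory and oligodendrocyte sums were above those of all inhibitory nuclei in both libraries, and whether doublets add to them was not tested.

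LYPD6 had its highest levels in 4 subclusters. It was at 712.5 CPM (242 UMIs) and 621.1 CPM (40 UMIs) in subcluster 6, at 659.1 CPM (375 UMIs) and 477.5 CPM (130 UMIs) in subcluster 8, and at 404.1 CPM (240 UMIs) and 278.0 CPM (24 UMIs) in subcluster 13. Within these the log2 ratios were -0.20 (-0.72 to 0.29), -0.46 (-0.76 to -0.17) and -0.54, all smaller in size than the -1.21 over all inhibitory nuclei. The same 3 subclusters had smaller shares of the deeper-band nuclei: 1.16% against 4.21% for subcluster 6, 5.01% against 7.84% for subcluster 8, and 1.54% against 7.35% for subcluster 13. At equal shares the LYPD6 ratio was -0.44 (-0.64 to -0.24). Subcluster 1 went the other way, with 71.2 CPM (38 UMIs) and 114.1 CPM (67 UMIs), a ratio of 0.68 (0.08 to 1.29).

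The fourth was subcluster 7, an unnamed group with LAMP5 among its leading genes. LYPD6 was there at 424.1 CPM (74 UMIs in 21 nuclei) and 246.2 CPM (55 UMIs in 33 nuclei). SST was at 45.9 CPM (8 UMIs) and 76.1 CPM (17 UMIs), or 0.381 and 0.515 UMIs per nucleus, near the background in glia. LYPD6 was therefore not limited to nuclei with SST.

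STK32B was found mostly in subclusters 6 and 8. In subcluster 6 it was at 323.9 CPM (110 UMIs in 43 nuclei, median 1) in the upper band and 791.9 CPM (51 UMIs in 9 nuclei, median 6) in the deeper one, with a log2 ratio of 1.29 (0.78 to 1.78). In subcluster 8 it was at 235.5 CPM (134 UMIs) and 191.0 CPM (52 UMIs), a ratio of -0.30 (-0.79 to 0.17). The ratio of -0.74 over all inhibitory nuclei therefore went with the smaller deeper-band shares of both subclusters, and at equal shares it was 0.45 (0.13 to 0.77), the opposite direction. Subcluster 6 entered that value with 9 deeper-band nuclei.

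CALB1 was spread over several MGE-like subclusters. It was at 232.0 CPM (132 UMIs) and 238.8 CPM (65 UMIs) in subcluster 8, at 150.5 CPM (56 UMIs) and 275.1 CPM (150 UMIs) in subcluster 10, at 166.7 CPM (99 UMIs) and 150.6 CPM (13 UMIs) in subcluster 13, and at 97.5 CPM (52 UMIs) and 131.2 CPM (77 UMIs) in subcluster 1. In subcluster 6 it was at 88.3 CPM (30 UMIs) and 264.0 CPM (17 UMIs). Of the 5 subclusters with at least 50 CALB1 UMIs, 4 had the higher value in the deeper band, and the interval excluded 0 in subcluster 10 alone, at 0.87 (0.42 to 1.34). Without subcluster 10 the ratio over inhibitory nuclei was -0.20 (-0.44 to 0.04), so the direction for CALB1 over pooled nuclei rested on it. At equal subcluster shares, with subcluster 10 included, the ratio was 0.38 (0.16 to 0.60). In the CHODL and NOS1 subcluster CALB1 had 1 UMI in each library.

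THSD7B marked subclusters on both sides of the MGE and CGE division. Its highest level was in the CGE-like subcluster 14, led by CILP2, SVIL and HGF (28 and 8 nuclei), at 2646 CPM (889 UMIs) and 2623 CPM (198 UMIs), a log2 ratio of -0.01. It was also high in subclusters 1 (1862 and 1599 CPM), 8 (1533 and 1370 CPM) and 13 (1480 and 1228 CPM). Subclusters 8, 13 and 14 held smaller shares of the deeper-band nuclei (5.01% against 7.84%, 1.54% against 7.35% and 1.03% against 2.74%). The lowest ratios within a subcluster lay elsewhere. THSD7B was at 370.1 and 84.7 CPM in subcluster 4, led by COL5A3 and TAC3 (-2.13), at 411.7 and 123.6 CPM in subcluster 17, led by NDNF (-1.74), and at 319.8 and 119.4 CPM in subcluster 2, led by PTPN14 and MME (-1.42). Over all CGE-like nuclei it was at 603.8 and 195.8 CPM, a ratio of -1.62 (-1.80 to -1.45), and over MGE-like nuclei at 700.2 and 536.2 CPM, a ratio of -0.39 (-0.46 to -0.31). Subclusters 6, 0 and 18 had higher levels in the deeper band, with intervals above 0 and 303.3 and 776.4 CPM in subcluster 6. Of 14 subclusters with at least 50 THSD7B UMIs, 10 were lower and 4 higher in the deeper band, with intervals below 0 in 6 and above 0 in 3. At equal shares the ratio was -0.14 (-0.22 to -0.07).

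The other 5 genes were then read in nuclei grouped by SST alone. CALB1, LYPD6, THSD7B and STK32B were leading genes of the same inhibitory cluster as SST, and CORT of another SST-rich cluster. Their more frequent detection beside SST was therefore to be expected and is not evidence of a link. Of the nuclei with at least 3 SST UMIs, 341 of 352 in the upper band and 251 of 261 in the deeper band lay in MGE-like subclusters. LYPD6 was detected in 48.3% of them in the upper and 24.9% in the deeper band, against 10.6% and 5.03% of inhibitory nuclei with fewer SST UMIs. CALB1 was detected in 42.6% and 52.9%, against 6.88% and 5.03%. THSD7B was detected in 83.0% and 81.6%, against 38.6% and 26.7%. STK32B was detected in 21.0% and 13.8%, against 3.14% and 0.580%, and CORT in 7.67% and 19.5%, against 2.84% and 2.32%, the latter pair near the 1.73% and 1.90% of oligodendrocyte-like nuclei with a CORT UMI. After thinning to 5000 UMIs, the order was the same: 4.46% (2.46 to 7.37%) against 1.77% (0.850 to 3.23%) for CORT in the upper band, with intervals that overlapped, and 17.5% against 1.97% in the deeper band. For LYPD6 the thinned shares were 44.9% against 7.95% and 22.6% against 4.18%.

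**Figure D5:**
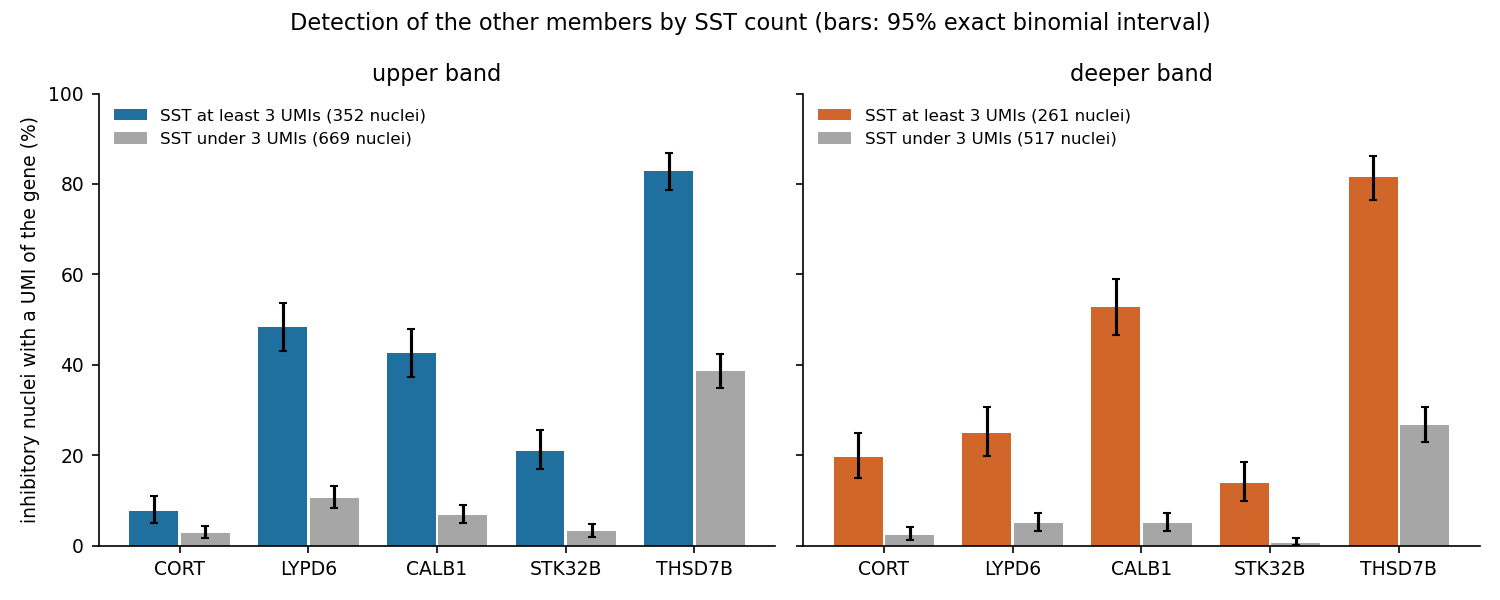
Percent of inhibitory nuclei with at least 1 UMI of each gene (vertical axis) among nuclei with at least 3 SST UMIs (coloured bars) and with fewer (grey bars), in the upper and the deeper band, with 95% exact binomial intervals. All 5 genes, which lead SST-rich clusters of these same data, were detected more often beside SST in both libraries. CORT and LYPD6 differ most between the bands, with 7.67% and 19.5% for CORT and 48.3% and 24.9% for LYPD6.

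Among nuclei with at least 3 SST UMIs, the band ratio was 2.34 (1.82 to 2.89) for CORT, from 13.4 to 67.7 CPM (39 and 142 UMIs), and -1.14 (-1.35 to -0.94) for LYPD6, from 280.5 to 126.9 CPM (815 and 266 UMIs). Among the 6633 genes with enough UMIs in these nuclei, 0.573% reached 1 log2 unit upward and 0.347% downward. Nothing is read from these shares either, because CORT and LYPD6 were chosen with their ratios in inhibitory nuclei known. CALB1 had a ratio of 0.39 (0.17 to 0.61), which was 0.18 (-0.0044 to 0.37) with no doublet removal and -0.10 (-0.38 to 0.18) at a threshold of 10 SST UMIs. The ratio was -0.67 (-0.998 to -0.35) for STK32B and -0.25 (-0.33 to -0.17) for THSD7B. In nuclei with fewer than 3 SST UMIs THSD7B was at 390.8 and 132.1 CPM, a ratio of -1.56 (-1.70 to -1.43). THSD7B thus had its larger band difference in nuclei with little or no SST. The difference between the 2 sets of nuclei was not tested.

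Most nuclei with STK32B also had LYPD6, while fewer of those with LYPD6 had STK32B. Of the nuclei with at least 3 SST UMIs and at least 2 STK32B UMIs, 46 of 48 in the upper band (95.8%, 85.7 to 99.5%) and 19 of 21 in the deeper band (90.5%, 69.6 to 98.8%) had a LYPD6 UMI. Among the other nuclei with SST the shares were 40.8% and 19.2%. Of nuclei with at least 2 LYPD6 UMIs, 59 of 144 (41.0%) and 23 of 52 (44.2%) had an STK32B UMI, against 7.21% and 6.22% of the others. CORT did not go with LYPD6: of nuclei with at least 2 CORT UMIs, 2 of 9 and 2 of 25 had a LYPD6 UMI, against 49.0% and 26.7% of the others, with an interval of 0.984 to 26.0% for the deeper band. CALB1 was found in 29 of 48 and 18 of 21 nuclei with STK32B, against 121 of 304 and 120 of 240 of the others.

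Across the 19 subclusters, both libraries summed, the level of SST was most like that of PDE1A (Pearson r = 0.93 of log2(CPM + 10)), a calmodulin-dependent phosphodiesterase, then MALT1 (0.89), TRHDE (0.88), IRAK3 (0.88) and CALB1 (0.86). CORT was most like NPY (0.87) and ADAMTS12 (0.84). LYPD6 was most like ANO5 (0.84) and RXFP1 (0.82), and STK32B most like RUFY2 (0.79), MED13 (0.78) and RXFP1 (0.75). CALB1 was most like UST (0.91), MALT1 (0.89) and SST (0.86). The genes like THSD7B included FRMD4A (0.77) and SYT7 (0.77), neither of which came up for another of the 6 genes. Between the 6 genes themselves, r was highest for SST with CALB1 (0.86), followed by LYPD6 with STK32B (0.74), and lowest for CORT with LYPD6 (0.10). These are descriptions over 19 points that share 2 libraries and differ in depth and number of nuclei.

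Among other genes known for somatostatin interneurons, NPY alone was past 1 log2 unit. Of 16 listed, 14 had enough UMIs in inhibitory nuclei, 1 was past that limit upward and 0 downward, against 0.389% and 0.219% of all genes, with a median ratio of -0.09 beside -0.00 for all genes. NPY, a peptide carried by part of these cells, was at 140.7 and 332.1 CPM (1.24, 1.14 to 1.34), and in nuclei with at least 3 SST UMIs at 288.4 and 840.1 CPM (1.54, 1.42 to 1.66). Both libraries summed, NPY was at 5939 CPM in subcluster 9 and at 484.6 CPM in the next highest, subcluster 1. With 2 times as many doublets removed, 1 of the 12 deeper-band nuclei of subcluster 9 remained. How the NPY ratio moved then was not tested. TRHDE, an enzyme that cleaves thyrotropin-releasing hormone, was at 867.2 and 662.3 CPM (-0.39), GRIN3A, an NMDA receptor subunit, at 373.7 and 259.9 CPM (-0.52), and TACR1, the substance P receptor, at 109.5 and 98.0 CPM (-0.16). TRHDE was far higher in nuclei with at least 3 SST UMIs, at 2058 and 1658 CPM, than in the other inhibitory nuclei, at 255.8 and 155.6 CPM.

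Among genes of peptide processing and secretory granules, SCG2 alone was past 1 log2 unit. Of 9 measured from 11 listed, 1 passed upward and 0 downward, and the median was 0.14. SCG2, a granule protein of the granin family, was at 32.8 and 81.3 CPM (1.31, 1.10 to 1.52), and in nuclei with at least 3 SST UMIs at 50.2 and 148.4 CPM (1.56, 1.27 to 1.86). The carboxypeptidase CPE had a ratio of 0.14, the peptidase NRDC -0.09, the convertase chaperone SCG5 0.05 and the granin CHGB 0.26.

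Transcription factors of these interneurons were nearly level. Of 8 measured from 11 listed, 0 passed 1 log2 unit in either direction, with a median of -0.06. LHX6, which specifies MGE interneurons, was at 158.5 and 150.6 CPM (-0.07), SOX6 at 615.9 and 631.4 CPM (0.04), SATB1 at 401.2 and 320.9 CPM (-0.32), and CREB1, a factor that binds the somatostatin promoter, at 55.3 and 48.9 CPM (-0.18). Of the LYPD6 relatives and nicotinic subunits, 2 of 12 had enough UMIs and 0 passed 1 log2 unit: CHRNA7 at -0.04 and CHRNB2 at -0.17, with a list median of -0.11. Of the 5 listed paralogs of the 6 genes, 4 had enough UMIs, with a median of 0.42. Past 1 log2 unit were 1 upward and 0 downward. The 1 was CALB2, at 1.01 (0.62 to 1.41), with an interval that reached below 1 log2 unit. The paralog THSD7A had a ratio of 0.40, at 511.5 and 675.2 CPM, the opposite direction to THSD7B. STK32A, with 0.40 at 31.3 and 41.2 CPM, likewise had the opposite direction to the -0.74 of STK32B over all inhibitory nuclei. At equal subcluster shares STK32B was at 0.45 (0.13 to 0.77), so the opposite direction held for the measured ratio only.

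Peptides and calcium-binding proteins of interneurons of all types mostly had higher values in the deeper band. NPY, PDYN and CALB2 are also in lists above. All 9 measured of 10 listed had enough UMIs, and the median was 0.92 beside -0.00 for all genes. Past 1 log2 unit were 3 upward (NPY, PENK and CALB2) and 0 downward, against 0.389% and 0.219% of all genes. PENK was at 1.28 (0.67 to 1.90) and CALB2 at 1.01 (0.62 to 1.41). Both intervals reached below 1 log2 unit, while that of NPY (1.14 to 1.34) did not. PENK had 37 and 65 UMIs and met the UMI minimum, set on both libraries summed, only narrowly with 102. Nothing is therefore read from the count of 3 against all genes. VIP was at 55.5 and 107.0 CPM (0.95), CCK at 114.5 and 204.7 CPM (0.84), CRH at 12.02 and 22.7 CPM (0.92) and PDYN, a dynorphin precursor, at 30.5 and 52.5 CPM (0.78). TAC1 went the other way, at 12.5 and 6.60 CPM (-0.92), and its highest level was in subcluster 13, which held 7.35% and 1.54% of the nuclei. CALB2, PDYN and CRH had theirs in subcluster 12, which held 3.62% of the upper-band and 9.51% of the deeper-band nuclei. The highest level of CCK was in subcluster 4 (4.21% and 8.61%), and that of VIP and PENK in subcluster 5 (5.48% and 5.40%). For TAC3 it was subcluster 14 (2.74% and 1.03%) and for NPY subcluster 9 (2.15% and 1.54%). The part of these shares in the ratios was not tested. CCK was nearly level in nuclei with at least 3 SST UMIs, at 66.1 and 67.3 CPM (0.03). Of this list, 3 genes had enough UMIs in those nuclei, with a median ratio of 0.03.

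Receptors for somatostatin were hardly captured. Of the 5 listed, SSTR1, SSTR3, SSTR4 and SSTR5 were measured and 0 reached 100 UMIs in inhibitory nuclei. The highest sum was 16 SSTR1 UMIs over 3199 excitatory nuclei of the upper band, with 9 in the deeper band. Band differences in the receptors were therefore not detectable at this depth.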

How the data were processed

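Single-nucleus libraries of 2 bands were analysed, 1 per band (66253015 and 78352064 UMIs over 7151 and 9694 barcodes). The authors deposited raw UMI counts per gene and barcode, not normalized, per the file headers and whole-number values. Cell Ranger is named in versions 2.1.1 and 6.2.1, per the submitters' processing notes, and the matrix header gives software version 3.1.0. Aligner, build, annotation and the barcode rule are not given in the sources used here.

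Nuclei with at least 500 genes were kept, and Scrublet (scanpy 1.11.5) removed 11.3% and 14.8% as doublets. Both libraries were clustered together (2000 variable genes, 30 components, 15 neighbours, Leiden resolution 1, igraph 0.11.9, scikit-learn 1.9.0, numpy 2.4.6, scipy 1.17.1, Python 3.11.15), and inhibitory nuclei again without the 6 genes and the lists. Names mean resemblance to marker lists and needed at least 3 raised markers. Free RNA was not removed. UMIs were summed per library and set of nuclei and scaled to CPM. Sums carry 95% Poisson, shares exact binomial (Clopper-Pearson), and CPM ratios exact conditional binomial intervals. The ratio step was tested on simulated data. Nuclei are not replicates, so no p-value was computed. A ratio was counted as past the fold at 1 log2 unit, with at least 100 UMIs. All 6 genes are named, with the 4 genes of most UMIs per list and any past the fold. Genes most like a member needed 500 UMIs: 5 were taken for SST and 3 for each other, of which some are not reported here. Leading genes of clusters, and genes named for their opposite direction, were picked after their values were seen. Genes and lists were chosen with earlier results of these data known. Listed genes whose symbol the feature tables did not match (PVALB, SSTR2, PCSK2, LYPD1, NKX2-1 and MAF among them) were not analysed here. Alternatives covered doublets, gene minimum, choice of nuclei, scaling, depth, free RNA and subclusters.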

Additional observations from a re-analysis of the deposited data

Results flagged for a closer look

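The band ratio of SST had opposite directions in inhibitory and excitatory neuron-like nuclei: the log2 ratio, deeper over upper band, was 1.11 in the former and -0.58 in the latter, where SST was at 0.624 and 0.394 UMIs per nucleus, near the glial classes. LYPD6 was higher in the deeper band in inhibitory subcluster 1 (0.68) and lower in subcluster 7 (-0.79). THSD7B was higher in the deeper band in subcluster 6 (1.36, on 9 deeper-band nuclei) and lower in subcluster 4 (-2.13). Each band had 1 library, so these differences were not tested.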

How the results depend on the processing

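No paired analysis was possible because each band had a single library, and the numbers in the titles belong to different bands. Of 239 recomputed values, 191 moved by less than the counting interval, 45 moved by more and 3 reversed. The leave-out and equal-share settings, the removal of shared barcodes and the per-nucleus subtraction of free RNA were chosen after seeing the data.

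The SST band ratio (1.11 in inhibitory nuclei) was 1.05 with no doublet removal, 1.23 with nuclei chosen by GAD1 and GAD2 UMIs, 1.04 after thinning to 1500 UMIs, 1.31 with the SST UMIs per oligodendrocyte-like nucleus subtracted and 2.13 with their CPM subtracted. Leaving out 1 subcluster gave 0.73 to 1.26 for SST, -1.43 to -1.02 for LYPD6, -0.20 (reversed) to 0.51 for CALB1 and -0.95 to -0.51 for THSD7B. CORT was 1.05 with 2 times as many doublets removed, and LYPD6 was -1.02 with none removed. For CORT, subtracting the UMIs per oligodendrocyte-like nucleus gave 2.22. Subtracting the CPM of those nuclei gave no CORT ratio, because its upper-band inhibitory CPM was below theirs. THSD7B was -0.77 with no doublet removal, -0.73 with 2 times as many, -0.44 with the GAD choice, -0.56 as a mean over the CPM of single nuclei, and also -0.56 when thinned to 5000 UMIs.

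The log2 ratio of shares of nuclei with at least 3 SST UMIs (-0.04) was 1.20 at a threshold of 10, 0.15 at 1 UMI after thinning to 1500 and 0.32 at 3 after thinning to 5000. Among nuclei with SST, a threshold of 10 gave 3.33 for CORT, -1.67 for LYPD6, -0.10 (reversed) for CALB1, -1.47 for STK32B and -0.44 for THSD7B. Thinning to 5000 gave 3.19 for CORT and 0.15 for CALB1. CORT was 1.54 with 2 times as many doublets removed, and THSD7B was -0.51 with no doublet removal and -0.060 with the GAD choice.

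For inhibitory over excitatory nuclei, no doublet removal gave 2.73 for SST and 4.21 for THSD7B in the upper band, and 4.35 and 4.05 in the deeper band. Thinning to 1500 gave 4.39 for SST, 3.41 for LYPD6 and 5.91 for CALB1 in the deeper band. For MGE-like over CGE-like nuclei of the deeper band, no doublet removal gave 3.26 for SST, 1.45 for STK32B and 1.05 for THSD7B. Finer subclusters gave 1.23 for THSD7B there and -0.0095 (reversed) in the upper band. At equal subcluster shares, no doublet removal gave 1.34 for SST, -0.20 for LYPD6 and -0.32 for THSD7B. The cause of these shifts was not tested. Depth limits CORT and STK32B most, with 60 and 127 UMIs in the library with fewer.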
